A study of Mus musculus with 6 samples.

Results

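Cells carrying astrocyte markers were examined in a single-cell RNA sequencing table of the mouse spinal cord. They were chosen as cells with a value above 0 for at least 2 of the 5 genes Aqp4, Slc1a2, Gja1, Aldoc and Slco1c1, and with a sum of the 3 myeloid genes C1qa, Ctss and Tyrobp below 15. The rule found 309 of 13614 cells, a share of 2.27% (exact binomial 95% interval 2.03% to 2.53%, counting error only). These 8 genes therefore define the cells and are no finding. The other 13305 cells served as the comparison, together with the 6869 of them that also lie under the myeloid limit.

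The spinal cords came from wild-type (WT) mice and from Nd6 mice, which carry a point mutation in the mitochondrially encoded complex I subunit ND6, so that the change is not limited to a cell type. Mice were either healthy controls or had experimental autoimmune encephalomyelitis (EAE), a model of multiple sclerosis induced by immunization with a myelin peptide. There were 6 libraries, 1 of WT control, 1 of Nd6 control, 2 of WT EAE and 2 of Nd6 EAE cords, from mice perfused with actinomycin D and triptolide, which block transcription, before mechanical and enzymatic dissociation and removal of myelin. Strain and age of the mice in each library are not given in the labels, and how many animals each library pools is not given there either. In the table, cell names fall into 6 sets that share a number, from 809 to 4633 cells and called A to F here by size, but neither the labels nor the cell names give the library of a set. Sets were not assigned to groups by their size or values. The table was treated as 1 pooled sample, no genotype or disease comparison was made, and no test was run.

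Astrocytes are the glia that clear glutamate and potassium from the synaptic space, ensheath blood vessels with endfeet rich in the water channel aquaporin 4, couple to each other through gap junctions, and supply neurons with lactate, glutamine and lipid. In inflammation and injury they become reactive, with more GFAP and other filament proteins, and may take up interferon, antigen presentation and chemokine programmes.

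The deposited values are whole numbers whose sum per cell runs from 687 to 1578 (median 962, with a median of 547 genes above 0). As the table does not show how they were scaled, they are given as deposited values and the depth is unknown. A mean is the mean deposited value per cell, and a gene counts as higher or lower when the ratio of means is at least 2 or at most 0.5, among genes with a value in at least 5% of either group. The sets stood apart in genes that the rule does not use. In the other cells, Apoe, the lipid carrier of glia and macrophages, had a mean of 1.47 in set D and 1.08 in set E against 28.8 to 94.0 in the remaining 4 sets, and Cst3, a protease inhibitor abundant in microglia, had 61.5 and 57.8 against 9.70 to 25.2. Results on which D and E bear are given by set, and 178 in place of 273 genes were higher in the selected cells without these 2 sets. The sets make up the pool from which genes were named, so values by set describe spread and are no replication. How many of all genes were higher in every set was not counted. In all, 18 barcodes occurred in more than 1 set, and 2 selected cells carried such a barcode.

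Among the 309 cells, 235 had exactly 2 of the 5 markers, 59 had 3, 14 had 4 and 1 had all 5. Slc1a2, the main glutamate transporter of astrocytes, had a value in 72.5% of them and a mean of 1.86, against 0.0968 in all other cells. Aldoc, the brain form of the glycolytic enzyme aldolase, had a value in 65.4%, Aqp4 in 35.6%, Slco1c1, a thyroid hormone carrier, in 35.3%, and Gja1, which encodes the gap junction protein connexin 43, in 20.4%. The pair Slc1a2 and Aldoc alone accounted for 81 cells, Slc1a2 and Slco1c1 alone for 38, Aldoc and Slco1c1 alone for 34 and Aqp4 and Slc1a2 alone for 30. Most members thus rest on the smallest number of markers the rule accepts. Without the myeloid limit 506 cells had at least 2 markers, and the limit removed 197 of them (38.9%). Just inside it, at sums of 13 and 14, lay 57 cells with a median of 2 astrocyte identity genes, and just outside, at 15 and 16, lay 53 cells with the same median.

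**Figure D1:**
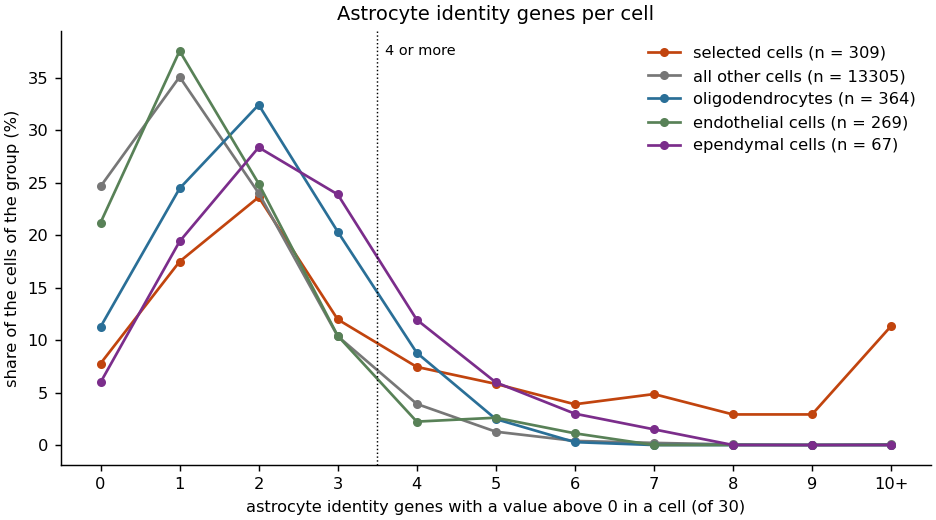
Share of cells in percent (vertical axis) by the number of 30 astrocyte identity genes, none used by the rule, with a value above 0 in the cell (horizontal axis, the last point holds 10 or more), for the selected cells, all other cells and 3 comparison types. The selected cells peak at 2 genes like the oligodendrocytes and keep a tail, with 53 cells at 8 or more, and the dotted line marks the split at 4.

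The label was checked with 30 astrocyte identity genes outside the rule. Of these, 25 passed the filter on low values and 22 were at least 2-fold higher in the selected cells, where 273 of all 3182 genes tested (8.58%) were higher. The filter lets low genes in through the group where they are high, so the count says little by itself: 7 of the 30 passed through the other cells, and 5 of these 7 were higher. Without a filter 27 of the 30 had a ratio of at least 2. Sox9 had a value in 8 of the selected cells, Aldh1l1 in 10, Tril in 12, Fgfr3 in 14 and Dio2 in 3, too few for the filter. Cell by cell the label held for a minority. The median number of identity genes was 3 in the selected cells and 1 in all others, 121 of the 309 (39.2%, interval 33.7% to 44.9%) had at least 4 of them against 5.91% of the other cells, and 53 (17.2%) had at least 8 against 17 of the other cells (0.128%). In 24 selected cells no identity gene had a value. At least 8 genes were found in 0 of 364 oligodendrocytes, 0 of 269 endothelial cells and 0 of 67 ependymal cells. These were chosen by their own markers under the same myeloid limit. Cells that also met the astrocyte rule were left out of them, 18, 35 and 5 cells in that order. The counts of 0 thus follow in part from this choice and are no check of the label.

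For this reason the 309 cells are called marker-selected here, and the 121 with at least 4 identity genes are described beside the 188 with fewer. That split was set after the data were seen, with 37 cells at 3 genes and 23 at 4, so the identity genes differ between the 121 and the 188 by construction. The 121 cells had a median of 411 genes and a median total of 818, against 612 genes and 1007.5 in the 188 cells, and a median mitochondrial share of 10.2% against 6.81%. Of the 74 cells with at least 3 rule markers, 55 (74.3%) had at least 4 identity genes, and of the 235 with exactly 2, 66 (28.1%) did. The number of identity genes also differed by the pair of markers a cell carried. Cells with both Aqp4 and Gja1 had a median of 10 identity genes, those with Gja1 and Aldoc also 10, those with Slc1a2 and Gja1 9 and those with Aqp4 and Aldoc 7, while the medians for pairs that include Slco1c1 were 1 or 2.

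Slco1c1 carries thyroxine across the blood-brain barrier and is used by brain endothelium as well as by astrocytes. Its mean was 0.944 in the endothelial cells, 0.702 in the 188 cells and 0.165 in the 121 cells. Of the 109 selected cells with a Slco1c1 value, 17 (15.6%) had at least 4 identity genes and 31 (28.4%) also met the endothelial rule, which asks for 3 of Cldn5, Flt1, Ly6c1, Pecam1 and Itm2a. Of the 200 selected cells without it, 104 (52.0%) had at least 4 identity genes and 4 (2.00%) met the endothelial rule. The sum of 10 endothelial genes was 10.6 with Slco1c1, 1.89 without, and 24.3 in the endothelial cells. In the whole selection 8 of the 10 were at least 2-fold higher than in all other cells, beside 8.58% of all genes tested. Among them were Flt1, a receptor for vascular endothelial growth factor, at 0.715 against 0.216, and the tight junction gene Cldn5 at 0.372 against 0.136. In the 121 cells none of the 8 that passed the filter there was 2-fold higher than in the other cells under the limit, where 11.8% of all 3011 genes tested were, and Flt1 had a mean of 0.231 against 0.292. Altogether 56 of the 309 cells (18.1%) also met the rule of another type, 35 endothelial, 18 oligodendrocyte and 5 ependymal.

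Myeloid RNA was present throughout the selection. C1qa, a complement gene of microglia and macrophages, had a value in 82.5% of the selected cells, Ctss in 80.3% and Tyrobp in 69.9%. In cells that should lack it, C1qa had a value in 75.0% of oligodendrocytes (median total 1067.5) and 61.0% of endothelial cells (median total 1087), against 84.3% of the 121 cells (median total 818) and 23.9% of ependymal cells (median total 1222). The summed mean of 12 microglial genes was 28.8 in the selected cells, 46.9 in all other cells and 30.6 in the other cells under the limit, and all 12 genes had values in selected cells. By set, that sum ran from 23.3 to 42.4 in the selected cells and from 33.1 to 94.0 in the others. Cst3, which is among the 12, alone had 7.955 to 19.94 by set in the selected cells. Its ratio to the other cells under the limit was 1.21, beside a median of 0.841 over the 12 genes. In sets D and E the selected cells carried less of the 3 rule genes, with a median sum of 2 in each, against 8 to 11.5 in the remaining 4 sets. The part of myeloid RNA in the astrocyte values below was not tested.

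**Figure D2:**
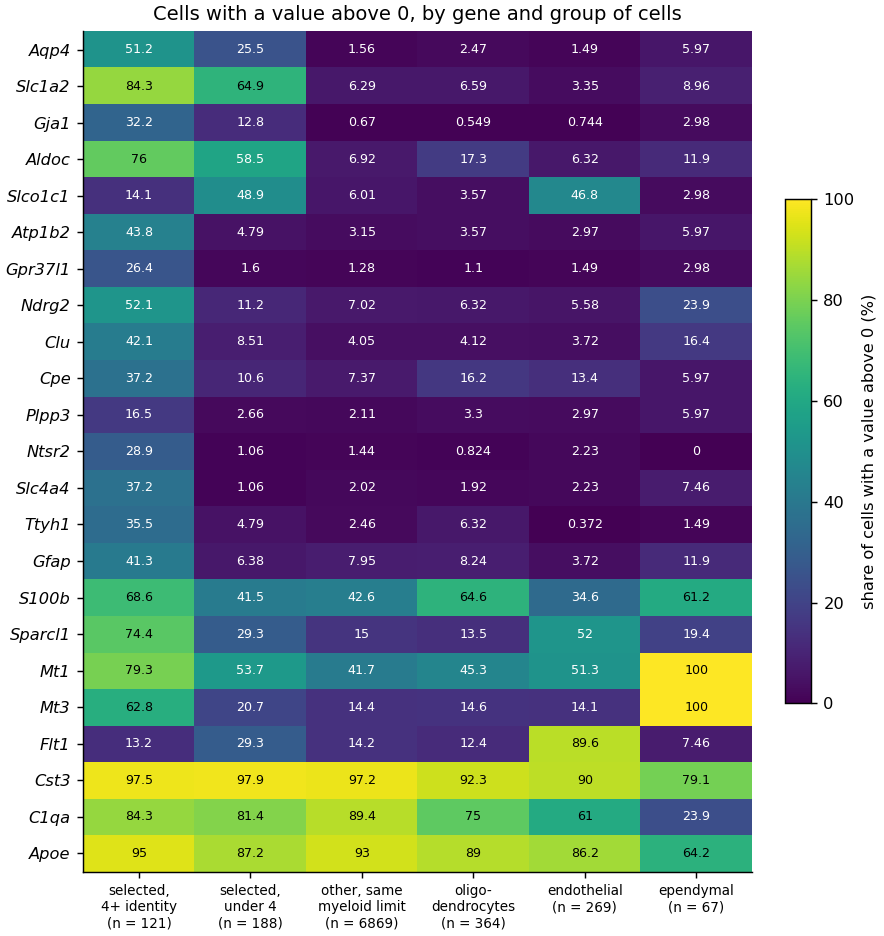
Share of cells with a value above 0 in percent (colour and printed number) for 23 genes (rows) in the selected cells with 4 or more identity genes, the selected cells with fewer, the other cells under the same myeloid limit and 3 comparison types (columns). Atp1b2 to Gfap are highest in the left column, Slco1c1 and Flt1 are higher in the second, and Apoe, Cst3 and C1qa are frequent in nearly every column.

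The genes with the highest ratio to all other cells, among those with a value in at least 10% of the selected cells, were the rule genes themselves and Slc4a4, Atp1b2, Clu, Ntsr2, Gpr37l1, Acsl3, Ttyh1 and Sparcl1, among others. Atp1b2 encodes an accessory subunit of the sodium-potassium pump, which powers glutamate and potassium uptake. By set, the mean of Atp1b2 was lowest at 0.346, median 0.478 and highest 0.545 in the selected cells, and 0.0201, 0.0350 and 0.0772 in all other cells. The sets did not overlap, and over all cells the ratio was 13.1. Slc4a4, the sodium bicarbonate cotransporter that buffers pH around synapses, had a ratio of 14 and was higher in 6 of 6 sets, but with 0.0370 its lowest set lay inside the range of the others. In the 121 cells the mean of Atp1b2 was 1.09, in the 188 cells 0.0532, and in the other cells under the limit 0.0358.

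Most genes for handling glutamate, GABA and potassium were higher in the selected cells. Of 13 genes, 11 passed the filter, 8 were higher and none was lower, beside 8.58% higher and 2.39% lower of all genes tested. The median ratio was 5.42 beside 0.983 over all genes tested. Of the 11, 4 passed through the other cells and 2 of these were higher. The GABA transporter Slc6a11 had a ratio of 13.9, the potassium channel Kcnj10 4.16, the glutamine exporter Slc38a3 5.42 and Glud1, which feeds glutamate carbon into mitochondria, 2.17. A pair of textbook genes of the group, named after their values were seen, stayed under 2-fold. Slc1a3, the second astrocytic glutamate transporter, had a value in 6.8% of the selected cells against 4.67% of the others and a mean of 0.0744 against 0.0516, and in the 121 cells 0.0909. Glul, which encodes glutamine synthetase, had a mean of 0.479 against 0.311, and its highest mean was in the oligodendrocytes with 0.742. S100b, often used as an astrocyte marker, also did not separate the cells, with 2.17 in the 121 cells, 3.34 in oligodendrocytes and 1.55 in the other cells under the limit.

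Of the genes of endfeet and gap junctions, 5 of 10 passed the filter and 4 were higher, beside 8.58% of all genes tested. All 4 passed only through the selected cells, where they are high, so the count is no support. Mlc1, a membrane protein of perivascular endfeet, had a mean of 0.126 against 0.00684, and its partner Hepacam 0.0939 against 0.0165. Gjb6, which encodes the second astrocytic connexin, connexin 30, had 0.0680 against 0.00451, and Cldn10, a claudin of astrocytes, 0.0744 against 0.00488. These are low values, and each had a value in at most 8.09% of the selected cells. The fifth, Bsg, which escorts lactate transporters to the membrane, had 1.54 against 0.867, with 6.67 in endothelial cells and 0.694 in the 121 cells.

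Genes tied to grey matter and to white matter astrocytes were both present. Of 8 genes of grey matter, or protoplasmic, astrocytes, 6 passed the filter and all 6 were higher, beside 8.58% of all genes tested. All 6 passed only through the selected cells, where they are high, so the count is no support. Agt, the precursor of angiotensin and a gene of astrocytes in brain stem and cord, had a mean of 0.149 against 0.00947 and a ratio of 15.7. By set, Agt had a lowest mean of 0.0370, a median of 0.136 and a highest of 0.273 in the selected cells and at most 0.0165 in the others, so the sets did not overlap. The serine transporter Slc7a10 had a ratio of 11.1 and the secreted protease Htra1 of 6. Of 7 white matter, or fibrous, genes in the table, 5 passed and 3 were higher, beside 8.58% of all genes tested (2 of the 4 that passed through the other cells). These were Gfap, which encodes the intermediate filament protein that defines fibrous and reactive astrocytes, Igfbp5 and Id3. Gfap had a mean of 0.515 against 0.0928, a ratio of 5.54, and 1.17 in the 121 cells against 0.0904 in the 188. Its mean in the selected cells ran over the sets from 0.125 over a median of 0.343 to 1.00, against 0.0425 to 0.134 in the others, so it was higher in 6 of 6 sets while the lowest selected set lay within the range of the others. Igfbp5 was uneven, with 0.362 in the selected cells of set A and 0 in sets D, E and F. Id3 had a ratio of 2.02, which was 1.78 against the other cells under the limit and 1.2 without cells that met another type's rule.

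Of 16 transcription factors used by astrocytes or their precursors, 11 passed the filter. Against all other cells 7 were higher and none was lower, beside 8.58% and 2.39% of all genes tested. Of the 5 that passed through those cells 1 was higher. Against the other cells under the limit 4 were higher, where 7.19% of all genes tested were. Nfib, a nuclear factor of gliogenesis, had 0.159 against 0.0382 and was higher in 6 of 6 sets, but its mean was 0.450 in endothelial cells. Npas3 had 0.113 against 0.0217, Id4 0.0647 against 0.0110 and Sox2, a factor of neural progenitors and astrocytes, 0.0615 against 0.0152, with 0.985 in ependymal cells. Id1 was also higher, at 0.0874 against 0.0411, yet had 0.0331 in the 121 cells and 0.439 in endothelial cells. Hox genes, which mark position along the body axis and are used by cord cells, had a value in 35 selected cells (11.3%, interval 8.02% to 15.4%), in 7.01% of all other cells and in 76.1% of ependymal cells. None of the 24 passed the filter in the selection.

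**Figure D3:**
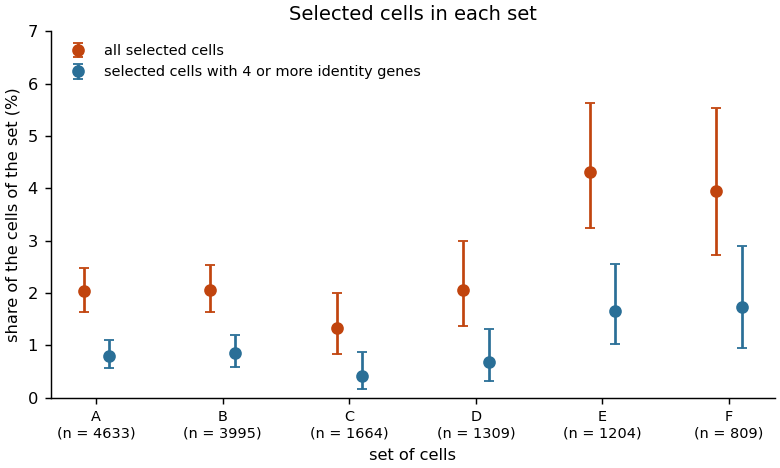
Share in percent (vertical axis) of the cells of each set A to F (horizontal axis, with the number of cells) that were selected, for all selected cells and for those with 4 or more identity genes. Points are shares and bars exact binomial 95% intervals, and the points of sets E and F lie above those of A, B and C in both series.

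The share of selected cells differed between sets. It was 2.03% in A (94 cells), 2.05% in B (82), 1.32% in C (22), 2.06% in D (27), 4.32% in E (52) and 3.96% in F (32). The intervals of E (3.24% to 5.63%) and F (2.72% to 5.54%) did not reach those of A (1.64% to 2.48%), B or C. The cells with at least 4 identity genes made up 0.421% of set C, 0.688% of D, 0.799% of A, 0.851% of B, 1.66% of E and 1.73% of F. They were a similar fraction of the selected cells throughout, from 31.8% in C to 43.8% in F, with wide intervals (13.9% to 54.9% in C). As sets were not assigned to libraries, these shares are not a comparison of mice. Sets D and E also held more selected cells that met another rule, 12 of 27 and 22 of 52, against 10 of 94 in A, 4 of 82 in B, 2 of 22 in C and 6 of 32 in F.

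Metallothioneins, small metal-binding proteins that astrocytes hold at high levels and that also scavenge radicals, were higher as a group. All 3 passed the filter through the other cells as well and were higher, where 8.58% of all genes tested were. Mt1 had a mean of 2.46 against 0.777, a ratio of 3.16, Mt2 0.495 against 0.117 and Mt3, the brain form, 1.39 against 0.369. All 3 were higher in 6 of 6 sets. For Mt1 the sets ran from 1.03 over a median of 2.46 to 3.27 in the selected cells and from 0.588 over 0.718 to 0.945 in the others, so the groups did not overlap. For Mt3 they overlapped, since sets D and E had 0.804 and 1.15 in the other cells. The levels in the 121 cells, 4.23 for Mt1, 0.901 for Mt2 and 2.12 for Mt3, lay above the 188 cells (1.31, 0.234 and 0.920) and far below the ependymal cells (13.5, 3.76 and 21.6). Of 18 antioxidant genes 8 passed and 3 were higher (2 of the 7 that passed through the other cells), beside 8.58% of all genes tested. The 3 were the peroxidase Prdx6 at 0.337 against 0.137 and the glutathione transferases Gstm1 and Gstm5. Gstm1 had 0.194 against 0.0569 and Gstm5 0.155 against 0.0495, and each of the 3 was higher in 6 of 6 sets. Sod2, the mitochondrial superoxide dismutase, had 0.0939 against 0.0990.

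**Figure D4:**
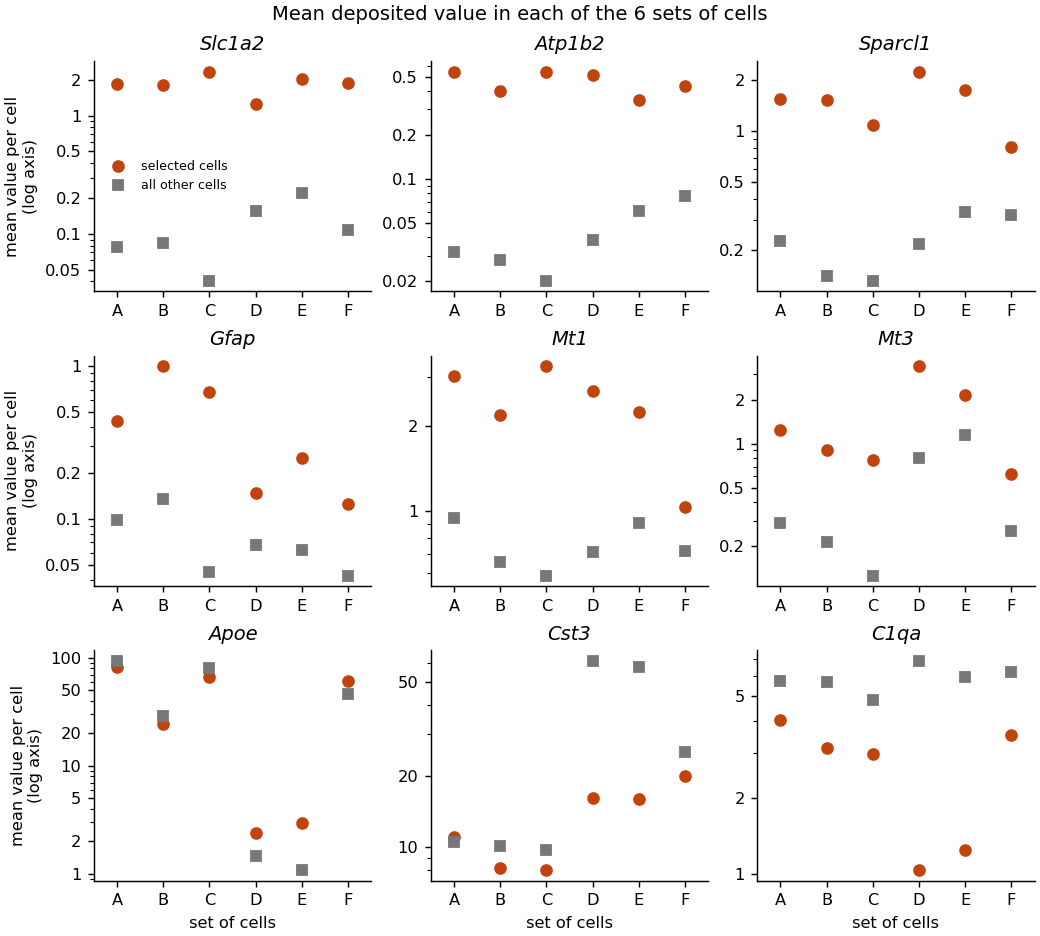
Mean deposited value per cell (vertical axes, logarithmic) of 9 genes in each set A to F (horizontal axes), for selected cells (circles) and all other cells (squares). Slc1a2, which the rule uses, Atp1b2 and Sparcl1 do not overlap between the groups, Mt1 does not either, and Apoe in D and E lies below 3 in both groups with the selected cells higher there.

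Lipid genes gave a mixed picture. Of 19 genes of lipid carriage and fatty acid handling, 15 passed, 6 were higher and none was lower, beside 8.58% and 2.39% of all genes tested. Of the 10 that passed through the other cells 1 was higher, so 5 of the 6 passed only through the selected cells. The 6 were Clu, which encodes the secreted chaperone clusterin (0.560 against 0.0479), the fatty acid activating enzymes Acsl3, Acsl6 and Acsbg1 with ratios of 10.1, 11.9 and 7.39, and the desaturases Fads2 and Scd2 with 8.61 and 2.81. Scd2 was higher in 6 of 6 sets without overlap, at 0.500 to 0.731 against 0.150 to 0.294, and had 1.15 in oligodendrocytes, near the 1.08 of the 121 cells. Apoe, the main apolipoprotein of astrocytes, was not higher over the pool, with 43.6 against 53.4, and its values differed more between sets than between the groups. It was 83.1 against 94.0 in set A, 24.5 against 28.8 in B and 66.7 against 81.0 in C, but 2.37 against 1.47 in D, 2.96 against 1.08 in E and 61.3 against 46.0 in F. In D and E, where the level in the other cells was low, the 121 cells had 6.22 and 4.85. Apoe had a value in 86.2% of endothelial cells and 89.0% of oligodendrocytes, so a value for it does not set these cells apart. Sterol synthesis could not be judged, as 1 of 16 genes passed the filter, Hmgcs1 at 0.1 against 0.0689.

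Energy metabolism differed little over the pool. Of 14 genes of glycolysis, lactate and glycogen that passed, 3 were higher and none was lower, with a median ratio of 0.980, beside 8.58% higher and 2.39% lower of all genes tested. Of the 11 that passed through the other cells none was higher. Pfkm, a phosphofructokinase, had 0.0583 against 0.0123, the glycogen phosphorylase gene Pygb 0.0712 against 0.0234 and the lactate transporter gene Slc16a1 0.0583 against 0.0160, the last with 0.156 in endothelial cells. Ldhb, the lactate dehydrogenase chain often linked to lactate use, had 0.314 against 0.293 and Ldha 0.236 against 0.269. The 13 mitochondrially encoded genes had ratios from 1.20 to 1.94, none past 2-fold against all other cells, with a summed mean of 41.4 against 32.3, and the sum was higher in 6 of 6 sets. Against the other cells under the limit 2 of the 13 were at least 2-fold higher, beside 7.19% of all genes tested. These were mt-Nd4l at a ratio of 2.11 and mt-Nd6 at 2.25, and in the 121 cells they had 3.06 and 2.64. The summed mean was 47.4 in the 121 cells, 37.5 in the 188 cells and 24.8 in ependymal cells. The cytochrome b gene mt-Cytb had 12.5 against 9.69. The gene mutated in Nd6 mice, mt-Nd6, had 0.317 against 0.181 and was higher in 6 of 6 sets, but its level in the other cells was 0.593 in D and 0.567 in E against 0.0792 to 0.160 elsewhere. Of 37 nuclear genes of complex I, 36 passed and none was past 2-fold in either direction, with a median ratio of 1.15. Of all genes tested 8.58% were higher and 2.39% lower. In the 121 cells, against the other cells under the limit, the median ratio was 1.595 for mitochondrially encoded genes. It was 1.355 for nuclear complex I and 1.177 for glycolysis, lactate and glycogen genes, beside 0.877 over all genes tested. Higher there were 2 of 13, 2 of 34 and 4 of 14 genes, beside 11.8% of all genes tested.

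Several genes for secreted and synaptic proteins were higher too. Of 24, 8 passed, 5 were higher and none was lower, beside 8.58% and 2.39% of all genes tested. Of the 5 that passed through the other cells 2 were higher. Sparcl1, which encodes hevin, a promoter of synapse formation, had 1.53 against 0.202, and 3.15 in the 121 cells. By set Sparcl1 ran from 0.813 over 1.54 to 2.26 in the selected cells and from 0.130 over 0.220 to 0.333 in the others, without overlap, but it also had 0.933 in endothelial cells. The brevican gene Bcan had a ratio of 6.76 and Timp3 of 2.29. Spock2 was higher over the pool, at 0.405 against 0.114, but had 1.55 in endothelial cells and 0.141 in the 121 cells. Mertk, a receptor for engulfment, had 0.107 against 0.188. Of the trophic and signalling genes 6 passed and 3 were higher, beside 8.58% of all genes tested, and none of the 2 that passed through the other cells was. The 3 were Agt, the endothelin receptor gene Ednrb at 0.107 against 0.00481, and the Hedgehog receptor gene Ptch1 at 0.0647 against 0.0156.

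Reactive genes differed by list. Of 35 genes of the pan-reactive, A1 and A2 lists in the table, names given to reactive states in injury and inflammation, 17 passed the filter, 3 were higher and 1 was lower, beside 8.58% higher and 2.39% lower over all genes tested. The 3 were Gfap, Serpina3n (0.0841 against 0.0345) and the heat shock gene Hspb1 (0.129 against 0.0599). All 3 belong to the pan-reactive list, of which 6 genes passed, 3 were higher and 1 was lower. Of the 3 pan-reactive genes that passed through the other cells, 1 was higher. Against the other cells under the limit only Gfap of these 17 remained at least 2-fold higher. Hspb1 had 0.669 in endothelial cells and 0.0826 in the 121 cells. Serpina3n, a protease inhibitor of reactive glia, had 0.239 in oligodendrocytes, 0.132 in the 121 cells against 0.0440 in the other cells under the limit (a ratio of 3.01), and was 0 in the selected cells of sets D and E. Vim, for the filament protein vimentin, had 0.398 against 0.328. Of the A1 list 8 passed and none was 2-fold higher or lower, with C3, its best-known complement gene, at 0.0971 against 0.0930 and a value in 7.77% against 8.58% of cells. None of the 3 A2 genes that passed was 2-fold higher or lower. In the 121 cells, against the other cells under the limit, 16 of the 35 genes passed, 2 were higher and 3 lower. Of all genes tested there 11.8% were higher and 15.9% lower. Of the A1 list 2 of 8 were lower in that comparison.

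None of the interferon and MHC class I and II genes that passed was 2-fold higher. Of 7 chemokine and cytokine genes that passed, 2 were higher and 1 was lower. Over all genes tested 8.58% were higher and 2.39% lower. None of the 12 interferon genes was past 2-fold in either direction, and Ifitm3, an interferon-induced membrane protein gene, had 0.553 against 0.468. All 10 genes of MHC class I had ratios from 0.708 to 1.06, with B2m at 3.06 against 4.32, and B2m was lower in 6 of 6 sets. Of 6 MHC class II genes that passed, 1 was lower, H2-DMb1, and Cd74, the invariant chain, had 2.53 against 3.15 over the pool. Cd74 was 0.0741 in the selected cells of D and 0 in those of E, against 2.55 to 4.03 in the other 4 sets and 2.13 to 4.42 in the other cells of those 4. The chemokine gene Cxcl10 was lower, at 0.0356 against 0.0789, Cxcl9 had 0.0518 against 0.0960 and Ccl5 0.188 against 0.303, while Ccl2 had 0.1 against 0.0919. Cxcl12 was higher at 0.385 against 0.0746, with 1.42 in endothelial cells and 0.0496 in the 121 cells. The cytokine gene Il33 was higher at 0.104 against 0.0472, with a ratio of 1.95 against the other cells under the limit, and had 0.173 in oligodendrocytes. In the 121 cells, against the other cells under the limit, 0 of 7 chemokine and cytokine genes were higher and 4 were lower. There 3 of 10 interferon, 2 of 10 MHC class I and 2 of 6 class II genes were lower. Of all genes tested there 11.8% were higher and 15.9% lower.

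**Figure D5:**
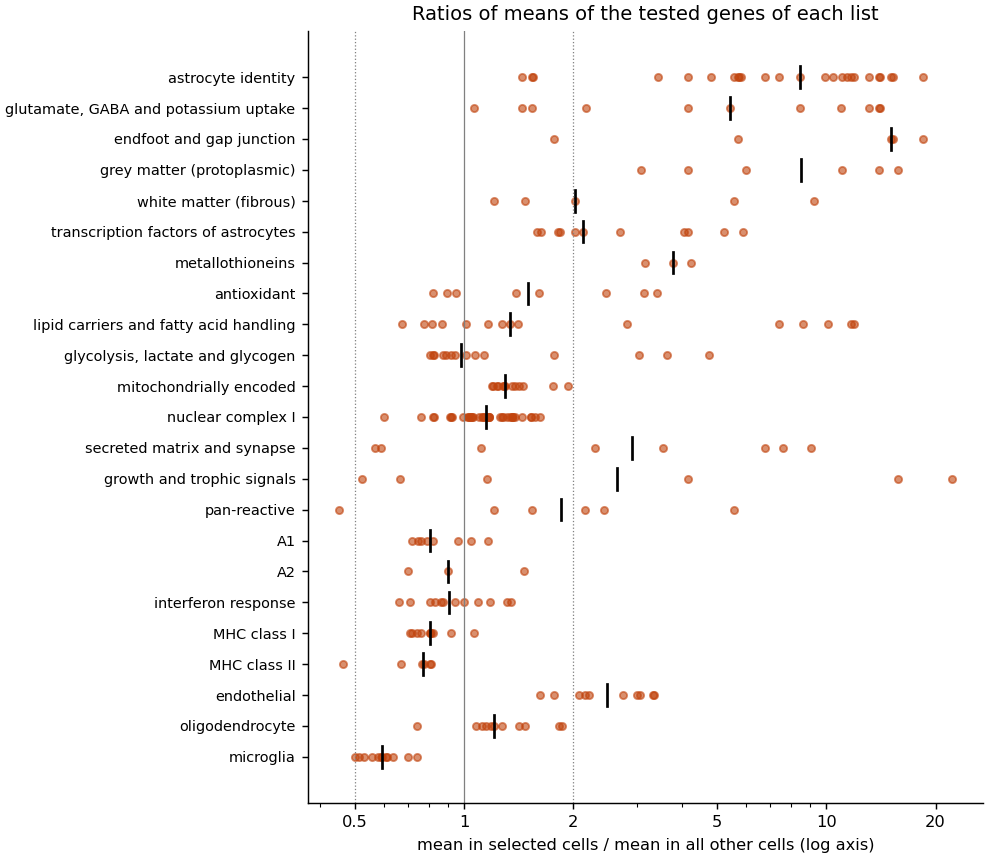
Ratio of the mean in the selected cells to the mean in all other cells (horizontal axis, logarithmic) for each gene that passed the filter on low values (points) in 23 gene lists (rows), with the median of the list (bar) and lines at 0.5, 1 and 2. Identity, uptake, endfoot and grey matter genes lie mostly above 2, mitochondrially encoded and complex I genes between 0.5 and 2, and microglial genes between 0.5 and 1.

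The genes lowest against all other cells, among those with a value in at least 50% of the latter, included Ctss, C1qa, Ly86, Tyrobp, C1qb, C1qc, Lgmn, Cst3 and Fcer1g, all expressed by myeloid cells. As the rule caps 3 of them, their order restates the rule. In all, 76 of 3182 genes (2.39%) were lower than in all other cells. Against the other cells under the limit, 224 of 3117 genes (7.19%) were higher and 38 (1.22%) lower, and the identity list again had 22 of 25 higher. Oligodendrocyte genes did not mark the selection, with none of the 11 that passed higher or lower and a sum of 20.1 against 17.2. No ependymal, neuronal or fibroblast gene passed the filter, so these lists gave no count. Their summed means were 0.379 against 0.185 for ependymal, 0.0939 against 0.0934 for neuronal and 0.0906 against 0.0970 for fibroblast genes, and 5 selected cells met the ependymal rule. Without the filter 6 of the 10 ependymal genes had a ratio of at least 2, and by set their sum reached 1.44 in the selected cells. Olig1, the only oligodendrocyte precursor gene that passed, was higher at 0.117 against 0.0438. Of the complement list, C4b had 0.117 against 0.122. None of the 5 immediate early and 8 macrophage and monocyte genes that passed was past 2-fold in either direction. The same held for 3 pericyte, 1 T and NK cell and 3 proliferation genes. In the 121 cells, against the other cells under the limit, 4 of 5 immediate early and 5 of 8 macrophage and monocyte genes were lower. So were 1 of 1 T and NK cell, 0 of 2 pericyte and 0 of 3 proliferation genes, beside 15.9% of all genes tested. Of the forebrain factors the table offered Lef1, at 0.107 against 0.0441, with 0.494 in endothelial cells and 0.0165 in the 121 cells.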

How the data were processed

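The 6 libraries were made by droplet 3' single-cell sequencing of dissociated spinal cord. Per the labels and the methods of the study, the authors aligned reads with Cell Ranger 7.1.0 to GRCm38, intronic reads included, and merged and filtered cells in Seurat 4.3.0.1. The deposited table holds 18792 genes and 13614 cells. Its values are whole numbers with totals of 687 to 1578 per cell, how the authors made them is not given in the sources used here, and they were taken as a deposited score, not as UMI counts, so no count model was fitted and the depth is unknown.

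Neither the labels nor the cell names give a cell's library, and sets of cells were not assigned by size, so all cells formed 1 pooled sample. Members were found by the rule above, means were taken per group of cells, and genes with a value in at least 5% of either group were called at a ratio of 2 or 0.5, with exact Clopper-Pearson 95% intervals for shares, in Python 3.11.15 with numpy 2.4.6, scipy 1.17.1 and pandas 2.3.3. No doublet caller was run, and cells that met another type's rule were counted. The step was tested on simulated counts and judged only on genes with higher means. That test does not cover genes with low values or the unknown scaling of the deposited values. The members, the 40 gene lists and the rules were chosen with earlier results of these data known. Named were the rule genes, the 15 highest and 10 lowest ratios (values in at least 10% of selected or 50% of other cells), and of each list the 5 highest means and the 3 highest and 3 lowest ratios. Genes named outside this rule, such as the low identity genes, were chosen after their values were seen. Alternatives changed the rule, the limit, the comparison cells, the scaling, the filter and the sets. Some genes that this rule names are not reported here.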

Additional observations from a re-analysis of the deposited data

How the results depend on the processing

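The share of selected cells was 0.544% with at least 3 markers, 1.62% with the rule without Slco1c1, 0.698% with a myeloid sum below 5, 3.72% with no myeloid limit, 1.86% without cells that met another type's rule and 2.62% with equal weight of the 6 sets. The 273 higher genes became 690 with at least 3 markers, 1172 with a myeloid sum below 5, 129 with no limit, 152 without cells of another type and 2974 without the filter on low values. The 76 lower genes became 677 with at least 3 markers, 198 without Slco1c1 in the rule, 598 with a sum below 5, 5 with no limit, 126 with equal weight and 5885 without the filter. The cause of these shifts was not tested. The 22 identity genes stayed within 1.5 times under every alternative run, and the 3 reactive genes became 7 without the filter.

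After the data were seen, other cells under the same limit were tried as the comparison, which gave 38 lower genes and 1 reactive gene higher. Leaving out sets D and E together, also tried then, gave 178 higher genes. Leaving out each set in turn gave shares of 2.07% to 2.40%, 220 to 441 higher genes (441 without set A), 75 to 168 lower genes (168 without A, 115 without F), 19 to 23 identity genes and 2 to 3 reactive genes. Of 144 ratios of named genes, all stayed within 1.5 times after scaling to 10000 per cell. Without cells of another type 131 did, 7 moved, and 6 turned below 1, Lef1 to 0.627, Cxcl12 to 0.530, Spock2 to 0.968, Flt1 to 0.972, Ly6c1 to 0.833 and Slco1a4 to 0.766. With at least 3 markers 65 of the 144 moved and none turned.

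No paired analysis was possible because nothing ties a cell to either of the numbered EAE replicates. Depth is unknown, so genes with few values cannot be judged, and intervals cover counting error only.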

Other observations

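Outside the identity list and the rule, genes with a high ratio in the 121 cells with at least 4 identity genes against the other cells under the myeloid limit included those below, picked as examples from the 20 highest (355 of 3011 genes, 11.8%, were at least 2-fold higher in that comparison and 480, 15.9%, lower). They were taken after the values were seen, in cells chosen by genes of the same type, and are a description. Ednrb, the endothelin B receptor, had a mean of 0.231 against 0.00393. Gabrb1, a subunit of the GABA-A receptor, had 0.231 against 0.00844, the ion channel gene Trpm3 0.421 against 0.0220 and Ntrk2, a receptor for the growth factor BDNF, 0.198 against 0.0124. Ptprz1, a receptor phosphatase that binds the growth factor encoded by Mdk, had 0.198 against 0.0122, and Mdk itself 0.165 against 0.00946. Gpc5, a glypican, had 0.198 against 0.0121, and Enho, which encodes the peptide adropin, 0.256 against 0.0175. The desaturase gene Fads2 had 0.149 against 0.00743 and the glycolytic enzyme gene Pfkm 0.116 against 0.0102.

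Outside the selection, 17 cells had at least 8 identity genes. Their median sum of C1qa, Ctss and Tyrobp was 20, above the limit of 15, and their median number of rule markers was 1. Of these 17 cells, 6 lay under the limit, and 6 of the 1473 cells with exactly 1 marker under the limit had at least 8 identity genes, against 0 of 5396 cells with none. Slc1a2 had a value in 88.2% of the 17 cells and a mean of 2.59. Among the 197 cells that the limit removed, 7 (3.55%) had at least 8 identity genes.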
